A study of Mus musculus with 3 samples.

Results

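The genes described here are 46 genes of Toll-like receptor and NF-kB signalling in RAW 264.7 cells, an established mouse macrophage line. A site belonged to a member when its base lay inside the member's annotated span on the same strand. This rule for sites used no measured value, but the members were chosen with earlier results of these data known. Of the 19301 m6A sites listed for the line, 158 lay in members, and 26 of the 46 members held at least 1. The series had a single group of 3 replicate samples, untreated RAW 264.7 cells grown in DMEM with serum, so there was no second condition, genotype or time point to compare. The organism label gave mouse, and the list's coordinates fitted the mouse genome build GRCm38. The assay was miCLIP2 on poly(A)+ RNA, in which an m6A antibody is crosslinked to fragmented RNA and reverse transcription stops at the crosslinked base. The machine learning classifier m6Aboost then gave each peak at an adenosine a score, and the list held a single score per site for the replicates together, from just over 0.5 up to 1. The score is the model's support for m6A at that base and not the fraction of molecules methylated, and the list gave no read counts, so depth per site is unknown here and no value had a replicate error. RAW 264.7 is a virus-transformed line, which limits it as a model of tissue macrophages.

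The base modification m6A, a methyl group on the N6 of adenosine, is added to mRNA after or during transcription. It is written by a methyltransferase complex around METTL3, mostly within the motif DRACH, in which D is A, G or T, R is A or G and H is A, C or T, with the third base methylated. It is read by YTH domain proteins, which can shorten the life of the mRNA. Toll-like receptors recognise microbial lipids, proteins and nucleic acids at the cell surface or in endosomes. They signal through the adaptors MyD88 and TRIF, IRAK kinases and TRAF ubiquitin ligases to the TAK1 and IKK kinase complexes. IKK activity leads to destruction of IkB proteins and frees NF-kB dimers to enter the nucleus, where they switch on inflammatory genes in macrophages.

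The highest-scoring site of each step of the pathway is shown first, as the 21 bases around it in the sense of the mRNA, 5′ to 3′, read from GRCm38 and with the 5-base motif in capitals. The A in the middle of the capitals is the listed base.

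Tlr2, CDS, chr3:83838284-83838304, minus strand: aaatgtagAGACTttcagtga
Tlr7, 3′ UTR, chrX:167305099-167305119, minus strand: aatctgaaAAACTgtgcctag
Cd180, 3′ UTR, chr13:102706483-102706503, plus strand: aagtgaagAAACTgtcatcct
Tirap, 3′ UTR, chr9:35187270-35187290, minus strand: gcggttaaGAACTcttgttgc
Irak1, 3′ UTR of other transcripts, chrX:74014589-74014609, minus strand: ctgcaaatTGACTgtggatgc
Tab2, CDS, chr10:7920347-7920367, minus strand: ccaataacGAACTgtttcagc
Rela, 3′ UTR, chr19:5647609-5647629, plus strand: agctgggaGGACTcggtgcat
Nfkbie, 3′ UTR, chr17:45562224-45562244, plus strand: ggaaggaaGGACTtcccaagt
Tnip1, 3′ UTR, chr11:54911367-54911387, minus strand: caagcctcGAACTgttgacaa

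All 9 sites had a DRACH motif that ended in ACT. Their scores were 0.930 for Tlr2, 0.946 for Tlr7, 0.903 for Cd180, 0.947 for Tirap and 0.923 for Irak1. Tab2 had 0.975, Rela 0.882, Nfkbie 0.820 and Tnip1 0.966. The Tab2 site was the highest of any member, and 93 sites of the whole list scored higher.

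Sites were unevenly spread over the pathway. At least 1 site was listed in 26 of 46 members (56.5%, 95% Wilson interval 42.2 to 69.8), against 23.1% of the 21951 protein-coding genes of the annotation. At least 5 sites were listed in 14 members (30.4%), against 6.98% of protein-coding genes. That background counts every annotated gene, whether or not the cells transcribe it, and no expression level was in the list, so the part of expression in these shares was not tested. A listed member held a median of 5 sites and a listed protein-coding gene 3. The 12 members with most sites carried 119 of the 158 sites. All 4 adaptors among the members had a site, as did 3 of 5 receptor partners and 2 of 4 cell surface receptors. Myd88 and Ticam2 had only sites that also lie in another gene's span, and without such sites 24 members were listed. Of the endosomal receptors 2 of 5 had a site, and of the genes of the IRAK and ubiquitin ligase step 4 of 7. Of the TAB and IKK-family genes 5 of 8 had a site, of the NF-kB subunits 3 of 5, of the IkB proteins 2 of 4 and of the negative regulators 1 of 4.

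**Figure D1:**
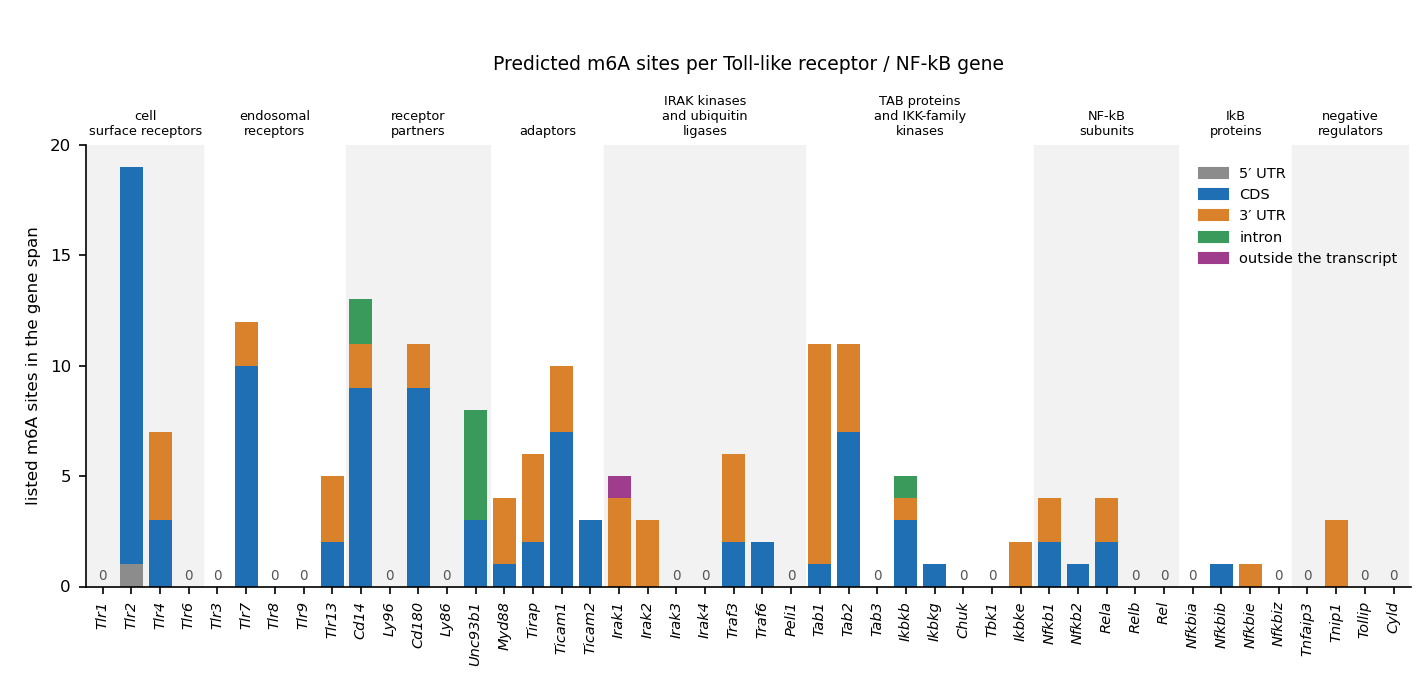
Number of listed m6A sites (vertical axis) in each of the 46 members (horizontal axis), ordered by role and stacked by the place of the site on the transcript with the longest CDS. Tlr2 has 19 sites, 18 of them in the CDS, Tab1 has 10 of 11 in the 3′ UTR, and the 20 members marked 0 have none.

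Among the cell surface receptors, sites lay in Tlr2 and Tlr4 and in neither Tlr1 nor Tlr6. Tlr2, the receptor for bacterial lipoproteins (chr3:83836272-83841767), had 19 sites, the most of any member, and 20 protein-coding genes had more. This was 6.30 sites per kb of spliced transcript, a density that 13 genes exceeded. Exon 3 of Tlr2, its last, is 2518 nt long and holds the whole CDS, and 18 of the 19 sites lay in this CDS, from 2206 to 83 nt before the stop codon. The remaining site lay in the 5′ UTR, in exon 2, with a score of 0.711, and was the only 5′ UTR site of any member. Of the 72 DRACH adenosines in the Tlr2 exons 17 were listed (23.6%), and in the CDS alone 16 of 54. The median Tlr2 score was 0.728 (0.546 to 0.930), and 12 of the 19 were at least 0.7. The site with the highest score, AGACT at position 83838294, lay in codon 161 of 784. A run of 5 sites covered 121 nt, from 320 to 200 nt before the stop codon, and a run of 4 covered 158 nt from 816 nt before it. Both sites outside DRACH had the motif GTACT, with scores of 0.546 and 0.582.

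Tlr1 and Tlr6 form heterodimers with Tlr2, and each has its whole CDS in 1 exon as Tlr2 does. Neither had a listed site, although Tlr1 holds 66 DRACH adenosines in its CDS and Tlr6 holds 68. The pair share sequence, and 20.4% of the 30-nt words of the Tlr1 exons also occurred in Tlr6 (16.8% of the Tlr6 words in Tlr1), where a read of that length could not be placed uniquely. The part of this overlap in the absence of sites was not tested.

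Tlr4, the receptor for lipopolysaccharide (chr4:66827584-66930284), had 7 sites in a layout unlike that of Tlr2. Of its 7 sites 5 lay between 3 nt before the first base of the stop codon and 125 nt after it. The others lay 757 and 116 nt before the stop codon. All 7 were in the 3572-nt last exon. The scores were low, with a median of 0.549, and 2 sites passed 0.7: GGACC 82 nt after the stop codon (0.827) and GAACA 98 nt after it (0.773). Tlr4 listed 6 of its 100 DRACH adenosines. A site outside DRACH, TAATA 47 nt after the stop codon, scored 0.542.

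Among the endosomal receptors, which bind nucleic acids, sites lay in Tlr7 and Tlr13 and not in Tlr3, Tlr8 or Tlr9. Tlr7, a receptor for single-stranded RNA (chrX:167304929-167330558), had 12 sites, all at DRACH and all in a last exon of 3557 nt that holds nearly the whole CDS. Of these, 10 lay in the CDS from 3002 to 130 nt before the stop codon, and 2 in the 3′ UTR at 29 and 229 nt after it. The last of these was the site of score 0.946 shown above, while the highest CDS score was 0.821, at TGACT in codon 620 of 1050. Tlr13, which recognises bacterial ribosomal RNA in mouse, had 5 sites at DRACH, scored 0.554 to 0.823, with 2 coding and 3 in the 3′ UTR. Tlr8, the closest relative of Tlr7, has 83 DRACH adenosines in its exons and Tlr9, the receptor for unmethylated CpG DNA, has 80, and none was listed.

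Among the receptor partners, 3 of 5 had sites, at densities that differed widely. Cd14, the co-receptor that delivers lipopolysaccharide to Tlr4, had 13 sites and 6.70 exonic sites per kb, the highest density of any member and one that 9 genes of the list exceeded. Of its 35 exonic DRACH adenosines 10 were listed (28.6%). Of the Cd14 sites 9 were coding, 2 lay in the 3′ UTR and 2 in intron 1 of the coding transcript, which is exon in a retained-intron transcript. The highest Cd14 score was 0.90, at GGACT 352 nt before the stop codon, followed by 0.887 at GAACT in codon 116 of 366. Cd180, a Toll-like receptor homologue without a TIR domain (chr13:102693558-102739629), had 11 sites, all at DRACH and in its last exon of 2251 nt, at 4.15 per kb. Its sites fell in runs, and 3 lay within 18 nt, 190 to 173 nt before the stop codon, with scores of 0.858, 0.774 and 0.863. Unc93b1, the chaperone that carries endosomal Toll-like receptors out of the endoplasmic reticulum, had 8 sites. Of these, 5 lay in intron 3, between positions 3936473 and 3936669 of chromosome 19, where a retained-intron transcript of the gene has an exon, with scores from 0.549 to 0.735. The other 3 were in the CDS, and the highest, 0.870, was at GGACT in the last exon, 116 nt before the stop codon. The small secreted partners Ly96 (MD-2) and Ly86 (MD-1) had no site, and Ly96 has only 9 exonic DRACH adenosines.

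All 4 adaptors among the members had a site, Myd88 and Ticam2 only where another gene overlaps. Ticam1, which encodes TRIF (chr17:56269319-56276786), had 10 sites at 3.34 per kb, 7 coding and 3 in the 3′ UTR, all in a last exon of 2899 nt that holds the whole CDS. Its highest score was 0.935, at AAACT in codon 588 of 732. Tirap, the adaptor that recruits MyD88 to Tlr2 and Tlr4, had 6 sites, with 2 in the CDS, in exon 6, and 4 in the 3′ UTR between 323 and 706 nt after the stop codon. Myd88 had 4 sites, 3 of them in the 3′ UTR at 140, 239 and 303 nt after the stop codon, with scores of 0.908, 0.581 and 0.777. The fourth Myd88 site, GGACC, lay in the CDS in exon 1 with a score of 0.775. All 4 also lie in an intron of Slc22a14, a gene on the same strand whose span covers Myd88. Ticam2, which encodes the TRIF-related adaptor TRAM, had 3 CDS sites, scored 0.505 to 0.716. All 3 are also 3′ UTR of the overlapping gene Tmed7, so they cannot be assigned to Ticam2 alone.

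At the IRAK and ubiquitin ligase step the sites were mostly in 3′ UTRs. Irak1, which joins the MyD88 complex, had 5 sites: 4 in the 3′ UTR of the transcript with the longest CDS, and 1 beyond its end, in the 3′ UTR of 2 other protein-coding transcripts. That distal site had the highest Irak1 score (0.923), and 3 others lay within 13 nt of each other, 270 to 282 nt after the stop codon, with scores of 0.591, 0.578 and 0.793. Irak2 had 3 sites in the 3′ UTR, scored 0.710 to 0.904. Traf3, a ubiquitin ligase that acts downstream of TRIF (chr12:111166370-111267153), had 6 sites. Of these, 4 lay between 37 and 192 nt after the stop codon and none in the rest of a 3′ UTR of 5088 nt. Traf6, the ligase activated by the IRAK kinases, had 2 sites, both in the CDS, of which GTACT lay 15 nt before the stop codon with a score of 0.604. Irak4, the kinase that begins the cascade, Irak3, an inhibitory member of that family, and Peli1 had none.

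The TAB proteins, which bind TAK1 to ubiquitin chains or activate it, showed contrasting layouts. Tab1 (chr15:80133127-80161707) had 11 sites, 10 in the 3′ UTR from 42 to 1322 nt after the stop codon and 1 in the CDS, at 3.71 per kb. Its scores ran from 0.572 to 0.912, and GGACG 939 nt after the stop codon scored 0.830, the highest of any member site outside DRACH. Tab2 (chr10:7905653-7956230) also had 11 sites, of which 7 were coding and 4 in the 3′ UTR. Of the CDS sites 6 lay in exon 3, an internal exon of 1501 nt, 1776 to 575 nt before the stop codon, and scores in this exon ran from 0.537 to the 0.975 shown above, in codon 120 of 693. The Tab2 transcript with the longest CDS has the weakest support level in the annotation. Tab3, a close relative of Tab2, had none of its 130 DRACH adenosines listed. Ikbkb, the IKK kinase that phosphorylates IkB, had 5 sites, the highest (GGACT, 0.853) 277 nt after the stop codon. Ikbkg, the regulatory subunit NEMO, had 1 site (0.695) 35 nt before the stop codon, and Ikbke 2 (0.587 and 0.673) in the 3′ UTR. The IKK kinase Chuk and its relative Tbk1 had none.

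**Figure D2:**
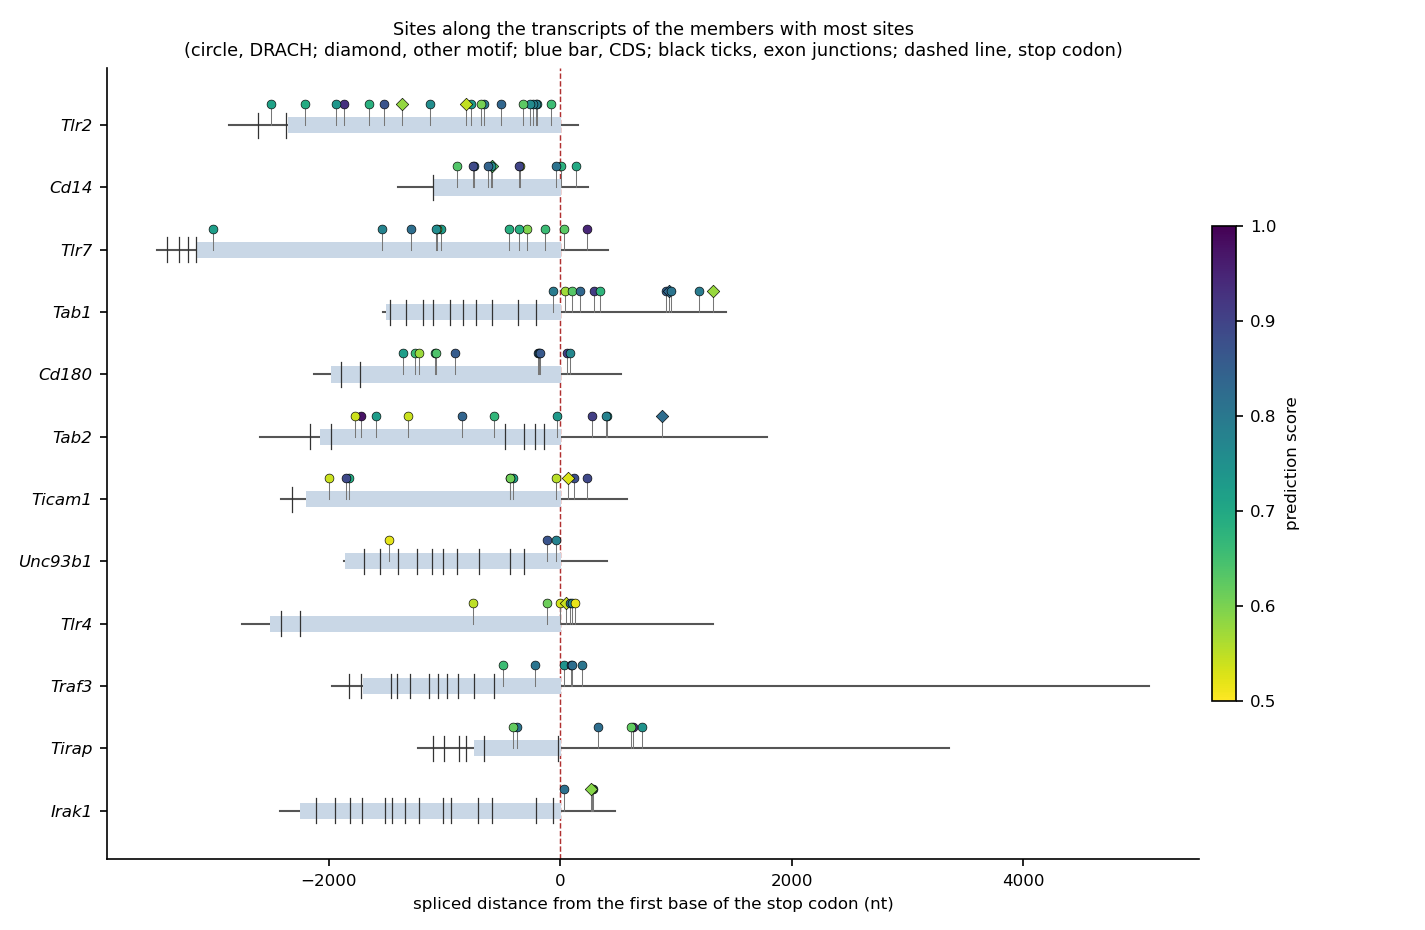
Exonic sites of the 12 members with most sites along the spliced transcript with the longest CDS (horizontal axis, nt from the first base of the stop codon, dashed line), coloured by prediction score. In Tlr2, Tlr7 and Ticam1 the sites run through a CDS that lies almost whole in the last exon, in Tab1 10 of 11 lie in the 3′ UTR, and in Tab2 6 lie in an internal coding exon.

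In 3 members a site touched or bordered the stop codon itself, and the sequences show that the codon was TGA in each.

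Tlr4, chr4:66841464-66841484, plus strand: ggcaacttGGACCtgaggaga
Ikbkb, chr8:22660385-22660405, minus strand: caggcctgTGACTgaggtgcc
Tlr13, chrX:106159624-106159644, plus strand: ttgttgagTGACTcgagtctt

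In Tlr13 the listed A is the third base of the stop codon TGA, with a score of 0.709. In Ikbkb it lies 2 nt before the first base of the stop codon, whose T is the last base of the motif, and scored 0.794. In Tlr4 it lies 3 nt before the stop codon, which starts just after the motif, and scored 0.536.

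The NF-kB subunits, the IkB proteins and the negative regulators held few sites. Rela, the p65 subunit with a transactivation domain (chr19:5637483-5648130), had 4 sites in its last exon, 2 coding and 2 in the 3′ UTR, scored 0.516, 0.834, 0.882 and 0.733. Nfkb1, which encodes p105 and p50, had 4 sites, of which 2 lay in short internal exons of 149 and 189 nt with scores of 0.558 and 0.575. Nfkb2 had 1 site at the lower end of the scores (0.522) and outside DRACH. Rel and Relb had none, and the 159 exonic DRACH adenosines of Rel were the most of any member. Of the IkB proteins, the classical ones of which hold NF-kB in the cytoplasm, Nfkbib had 1 site (0.795, in the CDS). Nfkbie had 1 (0.820, 80 nt after the stop codon). Nfkbia, whose product IkBα is the classical inhibitor, had no listed site among 28 DRACH adenosines, and Nfkbiz had none. Among the negative regulators Tnip1, which binds the deubiquitinase A20, had 3 sites in the 3′ UTR, 162, 363 and 439 nt after the stop codon. Their scores of 0.966, 0.909 and 0.803 gave the highest median of any member. The Tnip1 transcript used has the weakest support level, as for Tab2, and these sites also fall in an intron of another annotated transcript. Tnfaip3, which encodes A20, Tollip and the deubiquitinase Cyld had none, though Cyld has 151 exonic DRACH adenosines and Tnfaip3 102.

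The 20 members without a site had spliced transcripts with a median length of 3490 nt and a median of 73.5 DRACH adenosines (9 to 159), and the 26 members with a site had medians of 3168.5 nt and 72 (28 to 134). A member without a site may be unmethylated or may give too little RNA for peaks to be called. Its peaks may also have been rejected by the classifier, or its reads may not map uniquely. These cannot be told apart from the list.

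Taken over all members, the motif of the sites was close to that of the list. Of the 158 sites 144 were at DRACH (91.1%, 85.7 to 94.6), against 91.9% of all 19301 sites. GGACT was the leading motif, with 24 sites (15.2%, 10.4 to 21.6) beside 19.4% of the list, followed by AGACT with 22 (13.9% beside 12.3%), GAACT with 18 (11.4% beside 13.1%) and GGACA with 17 (10.8% beside 13.2%). The 14 sites outside DRACH had a median score of 0.598 and the 144 at DRACH 0.739. Sequence and transcript region are among the inputs of the classifier, so the motif and region of a site are not independent of its score. Each of the 158 windows of 21 nt occurred at no other listed site and in no other member's exons.

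Members differed from the list in the exons that carried their sites. Of the 149 member sites in an exon of the transcript with the longest CDS, 134 (89.9%, 84.1 to 93.8) were in the last exon, against 68.2% over the list. For sites within the CDS the share in the last exon was 75 of 89 (84.3%, 75.3 to 90.4), against 44.6%. In 12 members the longest exon holds at least 80% of the CDS, 8 of them had a site, and they carried 80 of the 158 sites, with all 61 of their CDS sites in the last exon. Over the list, 85.0% of CDS sites in genes of that structure were in the last exon. In the other members 14 of 28 CDS sites (32.6 to 67.4%) and 57 of 71 exonic sites (80.3%, 69.6 to 87.9) were in the last exon, beside 37.5% and 65.6% in the other genes of the list. The part of gene structure in the difference from the list was not tested. Sites of a gene share its structure and its RNA, so these intervals cover the counting of sites as if they were independent and are too narrow as a statement about genes.

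The remaining measures of place lay nearer to the list in percentage points. For long exons and exon junctions the list value still fell outside the member interval, which also treats sites as independent. The CDS held 89 sites (56.3%, 48.5 to 63.8, against 50.2%), the 3′ UTR 59 (37.3%, 30.2 to 45.1, against 42.6%) and the 5′ UTR 1 (0.633% against 2.18%). A further 8 sites lay in introns of the chosen transcript and 1 outside it, and all 9 fell in an annotated exon of another transcript of the same gene. Within 200 nt of the stop codon lay 47 of 149 sites (31.5%, 24.6 to 39.4), against 32.2%. Exons of at least 400 nt held 142 (95.3%, 90.6 to 97.7), against 89.7%, and 10 sites (6.71%, 3.69 to 11.9) were within 100 nt of an exon junction, against 12.5%. The closest was in Ikbkb, AGACT at position 22660459 with a score of 0.572. Its A is the first base of the last exon, so the AG read before it on the genome belongs to the intron. A further Ikbkb site (TGACT, 0.517) lay 8 nt upstream, within that intron, which is 3′ UTR in 2 other transcripts of the gene.

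**Figure D3:**
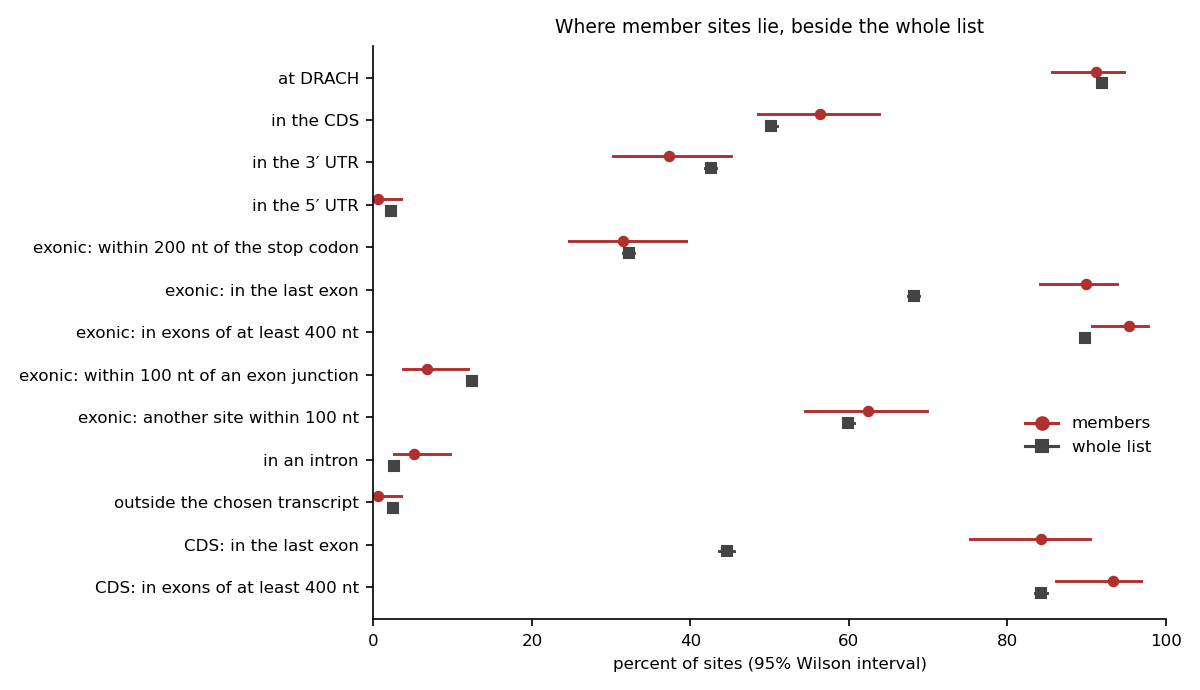
Share of sites with each property (horizontal axis, percent with 95% Wilson interval) for the 158 member sites (circles) and for the listed sites in genes with a coding transcript (squares). The member share in the last exon is 89.9% beside 68.2%, while the shares at DRACH and within 200 nt of the stop codon lie close together.

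Member sites came close to each other about as often as the sites of the list. Of the 149 exonic sites 93 (62.4%, 54.4 to 69.8) had another site of the same gene within 100 nt of spliced sequence, against 59.9% over the list. Among the closest were the Cd180 sites GAACT and GGACC 5 nt apart, whose motifs adjoin, and the Ticam1 sites AAACT and GAACA 4 nt apart, with scores of 0.935 and 0.609. Of the DRACH adenosines in exons of members with a site 135 of 1990 were listed (6.78%, 5.76 to 7.97), against 4.62% over all genes with a site. Over all 46 members, those without a site included, the share was 135 of 3552 (3.80%, 3.22 to 4.48). In the CDS of members with a site this was 7.42% (6.03 to 9.11) beside 4.52%, and in the 3′ UTR 6.75% (5.17 to 8.76) beside 4.99%. The median density of members with a site was 1.27 exonic sites per kb, and over all genes with an exonic site it was 0.917.

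Within coding sequence the listed base fell at all positions of the codon. Of the 89 member CDS sites 45 had the A at the second codon base (50.6%, 40.4 to 60.7), 22 at the first and 22 at the third. Over the list the second base had 49.0%, and of the DRACH adenosines in the same members' CDS 52.0% are at the second base. The codon GAC, for aspartate, held 33 of the 89 sites, followed by ACT for threonine with 13. The DRACH motif itself restricts which codons can hold its A. No codon shares over the list were computed, so these counts cannot be read as a trait of the members.

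Scores of member sites had the spread of the list. The median was 0.730 with quartiles of 0.622 and 0.820, beside 0.734, 0.627 and 0.832. In the CDS the median was 0.716 (list 0.70) and in the 3′ UTR 0.793 (list 0.787). A score of at least 0.9 was reached by 14 member sites (8.86%, 5.35 to 14.3), against 8.77% of the list, and these lay in 12 members. Besides the sites already named they included Tab1 AGACT 293 nt after the stop codon (0.912), Tab2 GGACT 273 nt after the stop codon (0.908) and Irak2 GGACT (0.904).

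**Figure D4:**
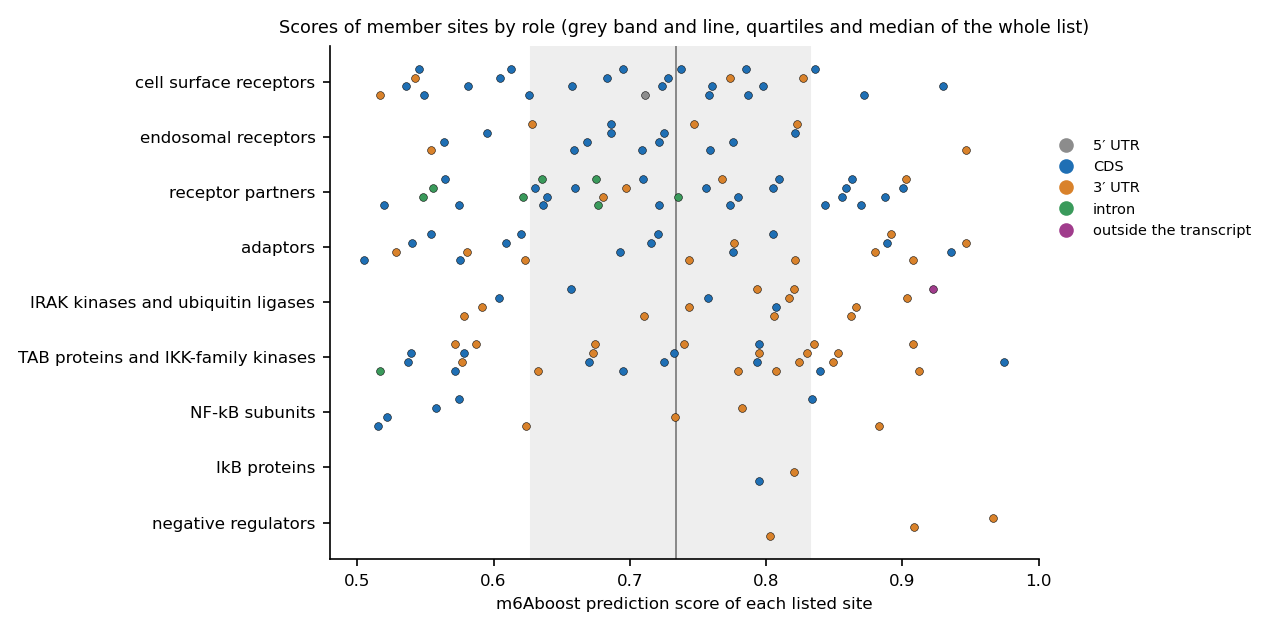
Prediction score (horizontal axis) of each of the 158 member sites by role, coloured by place on the transcript, with the quartiles and the median of the whole list as a grey band and line. The highest score is the Tab2 CDS site at 0.975, and the 3 Tnip1 sites, the negative regulators' only ones, all lie at 0.803 or above.

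A second list of 41 genes of the same pathway, drawn up with earlier results of these data known, had a site in 23 (56.1%, 41.0 to 70.1), beside the 23.1% of all protein-coding genes. It held 75 sites, of which 68 were at DRACH, 29 coding and 45 in the 3′ UTR. The 5 with most sites were Traf1, an adaptor of TNF receptor signalling, with 10 sites at 2.91 per kb, Cnpy3, a chaperone of Toll-like receptors, with 7 at 3.67 per kb, the NF-kB-inducing kinase Map3k14 with 7 at 1.65 per kb, Tradd with 7 at 4.14 per kb and the deubiquitinase Otulin with 6 at 4.02 per kb. Hsp90b1, a chaperone of Toll-like receptors, also had 6 sites and ranked after Otulin by its lower median score. All 7 Map3k14 sites were in the 3′ UTR. Map3k7, which encodes TAK1, had 1 site of score 0.554, in contrast to the 11 each of its partners Tab1 and Tab2. Tlr5, Tlr11, Tlr12 and Sarm1 had none. Of 10 macrophage markers 5 had a site (Csf1r, Spi1, Lyz2, Fcgr1 and Cd14, itself a member), and 0 of 5 markers had one in each of the T cell, B cell, fibroblast and embryonic stem cell lists. With 23.1% of coding genes listed and no expression values, counts this small are a weak check on the cell type.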

How the data were processed

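Libraries came from 3 replicate samples of untreated RAW 264.7 cells. The submitters' processing notes name STAR 2.7.3a, SAMtools 1.9, UMI-tools 1.0.0 and bedtools 2.27.1. Reads were mapped to GRCm38 and deduplicated by molecular barcode, reads with C-to-T changes were set apart, peaks were called with PureCLIP per replicate, and those found in more than 1 replicate were kept. The deposited list pools the replicates and holds 1 prediction score per site, made by the authors with m6Aboost, and no counts. Replicate spread could therefore not be measured, and no test or p-value was computed.

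Here the start was read as 0-based and sites were placed with GENCODE M21 on the transcript with the longest CDS (ties to the longer transcript), the stop codon counted as CDS. Sites that also lie in the span of another gene were kept. Shares carry 95% Wilson intervals, which cover counting only. Whole-list shares of place use sites in genes with a coding transcript. DRACH adenosines were counted in exons on the genome, both bases of the flank included, sense strand only. All members are accounted for by role, single sites were named for the 12 members with most sites (ties to the higher median score) and the highest site per role, and the single sites named for other members were chosen after their values were seen. The members and the gene lists were chosen with earlier results of these data known. Alternatives were score minimums of 0.7 and 0.9, other motifs, windows, transcripts and start base, collapsing sites within 5 nt and leaving out overlapping genes, with Tlr2 left out added after seeing the data. Python 3.11.15, NumPy 2.4.6, SciPy 1.17.1, pysam 0.24.0 and matplotlib 3.10.9 were used, and placing was tested on simulated sites.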

Additional observations from a re-analysis of the deposited data

How the results depend on the processing

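No paired analysis was possible because a single list stands for all the samples, and leaving out a replicate could not be done either. With a score of at least 0.7, 91 sites in 23 members were left, with 95.6% at DRACH, 97.8% in long exons, 2.25% near a junction, 46.1% with a neighbour, 2.39% of DRACH adenosines of all members listed (3.80% with all scores) and a median of 0.0811 sites per kb over all members (0.374 with all scores). With at least 0.9, 14 sites in 12 members were left: 100% at DRACH, 28.6% in the CDS, 64.3% in the 3′ UTR, 0 in the 5′ UTR, 23.1% near the stop codon, 100% in long exons, 0 near a junction, 0 with a neighbour, a median score of 0.917, 0.366% of DRACH adenosines listed and a median of 0 per kb. Read as 1-based starts, 0 sites were at DRACH, which follows from moving the motif off the listed A to a neighbouring base. RRACH held 79.1% and any A before C 96.8%. On the longest transcript by genomic span the CDS share was 46.8% and the median density 0.162 per kb. Without sites in overlapping genes 24 members had a site and the density was 0.231. Windows of 100 and 400 nt put 20.1% and 51.0% near the stop codon, windows of 50 and 200 nt put 1.34% and 16.1% near a junction and 45.0% and 78.5% near a neighbour, and exons of at least 1000 nt held 82.6%. These follow from the widths and limits themselves. The last-exon share stayed within its interval under each alternative run on it. Collapsing sites within 5 nt left 151 sites and a neighbour share of 58.5%. Leaving out Tlr2, an alternative chosen after seeing the data, left 139 sites in 25 members, with 0 in the 5′ UTR, 51.1% in the CDS, 42.4% in the 3′ UTR, 89.2% in the last exon and a median of 0.324 per kb. Apart from the 5′ UTR share without Tlr2, the shares under both stayed within their 95% intervals, the counts and density within 1.5 times and the median score within the SD of the scores.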
